A study of Homo sapiens with 6 samples.

Results

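Aminoacyl-tRNA synthetases were examined in U87, an established human glioblastoma cell line, by RNA sequencing of TLR2 knockout cells and of the cells they were set against. The 34 genes, listed by symbol with earlier results of these data known, comprised 18 whose enzymes work in the cytosol and 16 whose enzymes work in mitochondria, out of 27738 genes matched in the table. Each gene was represented by the RefSeq accession with the highest base mean, the mean read count over all libraries after division by library size factors. The cells were labelled EGFR+vIII TLR2 KO (3 libraries) and EGFR+vIII (3 libraries), so both labels name EGFR, the epidermal growth factor receptor, and vIII, its constitutively active deletion mutant. TLR2 encodes an innate immune receptor for bacterial lipoproteins. How the receptors were introduced, how TLR2 was disrupted, and whether the knockout was a single clone or the libraries separate cultures is not stated in the labels, so the p-values reflect library-to-library variation that could be technical only.

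An aminoacyl-tRNA synthetase joins an amino acid to the tRNA that carries its anticodon, the step at which the genetic code is read. Human cells use 1 set of nuclear genes for the cytosol and a largely separate set, usually marked by a final 2 in the symbol, for the mitochondrial matrix. Several cytosolic enzymes are held together with scaffold proteins in the multi-synthetase complex. When amino acids run short, the kinase GCN2 phosphorylates eIF2 and the transcription factor ATF4 is translated. Many cytosolic synthetase genes are known ATF4 targets.

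The only values were those of the authors' own comparison, with no column per library. All 8 TLR2 accessions stand at 0 in the authors' deposited table, so the targeted gene does not check the labels. Fold changes are read as knockout over EGFR+vIII because the table names its groups in that order, and an opposite order would turn round each direction given here. The base means of the authors' deposited table sum to 11240272 normalized reads, and the library size factors derived from it lie between 0.928 and 1.07. Of 10 mesenchymal and glioma markers 7 had a base mean of at least 100 per the authors' deposited table, with VIM, the filament protein vimentin, at 126476. Of the markers of astrocytes, leucocytes, epithelium and neurons none of 26 reached 100, and GFAP, S100B, PTPRC and CDH1 stand at 0 in the authors' deposited table. Such values cannot show that these cell types were absent, since the mesenchymal marker FN1 also stood at only 4.98. The endothelial markers KDR (556) and PECAM1 (159) did reach a base mean of 100 per the authors' deposited table, neither was called, and their part in the results below was not tested.

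The promoters are shown first because a short element recurs in them. RefSeq promoter sequence (GRCh38.p14, 250 bases before to 50 after a start) was matched for 29 of the 34 genes. For 25 of them the window sits at the start of the gene as annotated. For EARS2, TARS1, CARS2 and FARS2 it sits at a start 25, 269, 7007 and 11073 bases inside the gene, and the matches there (CACGTG in EARS2 and CARS2, TGATGNAA in TARS1) are counted with the rest. The letters searched on both strands were TGATGNAA, the core of the C/EBP-ATF response element that ATF4 dimers bind, and CACGTG, the E-box bound by MYC and related factors. The end of CACGTG can share bases with the start of TGATGNAA, but in IARS1, the only synthetase promoter with both, they lay apart, at positions -186 and -13. TGATGNAA was found in 7 of the 29 synthetase promoters (24.1%), against 401 of 15843 promoters of protein-coding genes (2.53%) and 101 of 6424 promoters of tested genes (1.57%). It lay in 6 of 15 cytosolic and 1 of 14 mitochondrial synthetase promoters. In all 6 cytosolic promoters, those of IARS1, MARS1, AARS1, CARS1, NARS1 and TARS1, the letters were TGATGCAA or its reverse complement TTGCATCA, which 0.669% of all protein-coding promoters hold. The exception in mitochondrial genes was YARS2, with TGATGGAA. CACGTG was found in 4 of 29 synthetase promoters (13.8%), against 1407 of 15843 (8.88%). A match is a description of these letters and not evidence that a factor binds there.

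Below are the stretches from 220 bases before to 30 after the start, 250 bases each, of 2 genes with the element that were called higher in the knockout (MARS1 and AARS1), 2 with the element that were tested and not called (NARS1 and IARS1), and 1 called higher without it (RARS1). Capitals mark the element. The stretches lie at chr12:57487848-57488097, plus strand (MARS1), chr16:70289477-70289726, minus strand (AARS1), chr18:57621807-57622056, minus strand (NARS1), chr9:92293668-92293917, minus strand (IARS1) and chr5:168486251-168486500, plus strand (RARS1).
MARS1: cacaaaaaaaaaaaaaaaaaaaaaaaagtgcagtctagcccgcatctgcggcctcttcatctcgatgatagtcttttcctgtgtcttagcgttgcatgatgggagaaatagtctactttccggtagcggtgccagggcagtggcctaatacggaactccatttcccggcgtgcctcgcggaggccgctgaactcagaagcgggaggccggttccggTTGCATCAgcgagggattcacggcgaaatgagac
AARS1: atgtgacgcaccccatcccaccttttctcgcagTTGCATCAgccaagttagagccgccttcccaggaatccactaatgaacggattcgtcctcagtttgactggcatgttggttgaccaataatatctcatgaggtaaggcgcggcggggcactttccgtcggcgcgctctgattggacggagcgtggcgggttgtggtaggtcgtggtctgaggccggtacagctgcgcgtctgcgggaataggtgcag
NARS1: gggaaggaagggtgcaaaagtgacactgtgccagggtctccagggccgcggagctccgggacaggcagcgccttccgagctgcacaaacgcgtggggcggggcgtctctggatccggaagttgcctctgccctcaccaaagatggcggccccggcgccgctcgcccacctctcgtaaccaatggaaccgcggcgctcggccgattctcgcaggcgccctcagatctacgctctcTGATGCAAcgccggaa
IARS1: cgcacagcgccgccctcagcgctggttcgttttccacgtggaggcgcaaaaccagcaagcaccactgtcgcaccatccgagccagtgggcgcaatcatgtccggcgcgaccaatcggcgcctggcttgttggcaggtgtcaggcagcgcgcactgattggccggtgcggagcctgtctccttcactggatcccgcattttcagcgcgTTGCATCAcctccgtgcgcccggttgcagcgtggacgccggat
RARS1: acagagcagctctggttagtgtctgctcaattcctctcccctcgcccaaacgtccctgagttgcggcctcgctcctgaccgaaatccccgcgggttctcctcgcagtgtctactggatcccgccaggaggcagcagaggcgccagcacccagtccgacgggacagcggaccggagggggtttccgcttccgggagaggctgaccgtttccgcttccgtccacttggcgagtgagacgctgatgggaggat

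The element begins 4 bases before the start in MARS1, 13 before in IARS1, at position -187 in AARS1, and at base 15 of the transcribed stretch in NARS1. Among tested genes with a promoter, it was present in 3 of 7 synthetases called higher and in 2 of 12 not called, counts given without a test. Without the TGATGGAA of YARS2, the counts for TGATGCAA were 2 of 7 and 2 of 12. The groups also differ in abundance and in their share of mitochondrial genes. Presence of the element and the calls did not coincide gene by gene: RARS1 and FARSA rose without it, and NARS1 and IARS1 carried it with no call. Relative to neighbouring tested genes NARS1 was called higher (log2 fold change 0.35, adjusted p = 1.42e-05), by a p-value that leaves out the spread of the neighbours. IARS1 had a base mean of 48.0 and a standard error of 0.32 in log2 units, so its lack of a call says little. Whether the element bears on the rises was not tested.

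The first question was which synthetases differed in the knockout. At an adjusted p under 0.05, 9 synthetases were higher in the knockout and 0 were lower. They were the cytosolic MARS1, RARS1, AARS1, FARSA, SARS1 and YARS1 and the mitochondrial AARS2, MARS2 and YARS2. These 9 stand among 21 members with an adjusted p per the authors' deposited table, 12 of which were not called. The background was 12.4% of 9372 tested genes called higher and 12.7% called lower. The median log2 change was 0.24 over the 21 members and 0.02 over all tested genes. Fold changes were positive in 17 members and negative in 4. An unadjusted p under 0.05 was reached by 10 members per the authors' deposited table, the 9 and CARS2. The count depends on the null. Against a change of at most 1.5-fold, 1 member passed, with a background of 2.28% higher. That member was SARS1, measured on a non-coding transcript. With Wald scores scaled by their own central spread 5 passed, with a background of 4.16%.

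**Figure D1:**
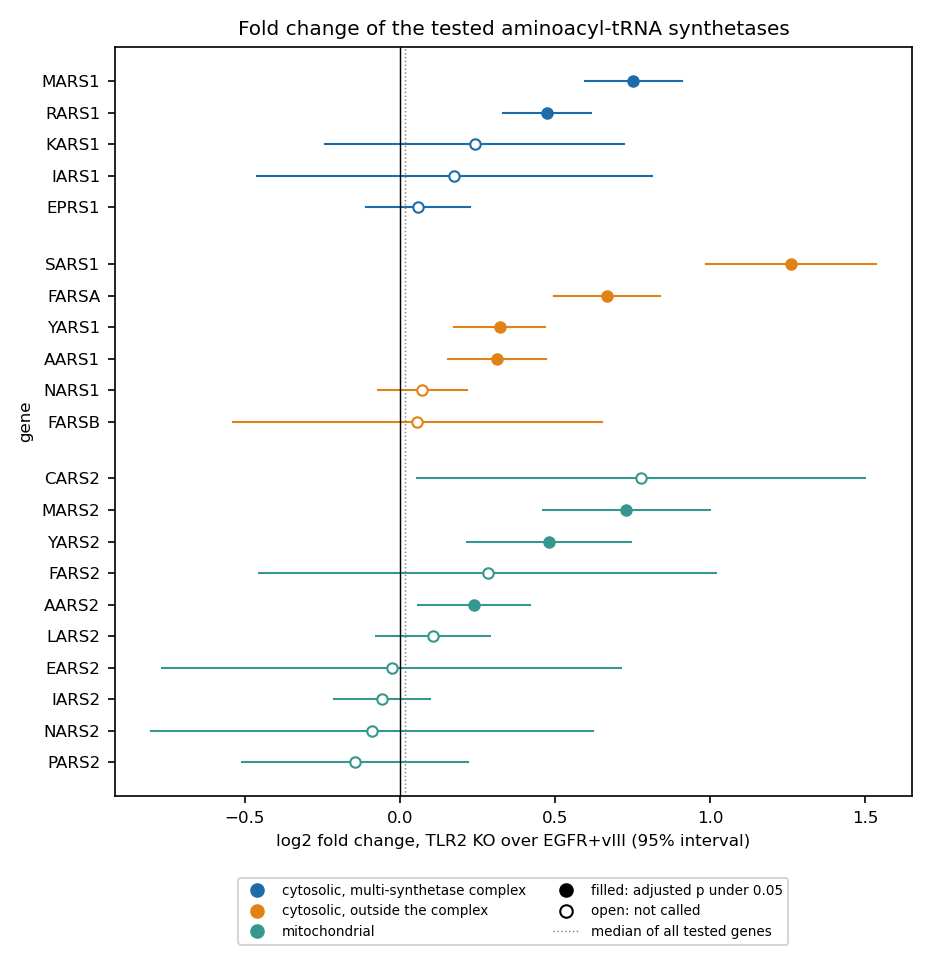
Log2 fold change (knockout over EGFR+vIII) of the 21 tested synthetases, with 95% intervals, by cellular seat. Filled points passed an adjusted p under 0.05; all 9 lie right of 0, between 0.24 and 1.26, and the dotted line marks the median of all tested genes at 0.02.

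The lowest base mean among the 9 called members was 436 (YARS2) per the authors' deposited table. Of 14 members with a base mean of at least 100, 9 were called higher and 0 lower, where the background at that abundance was 19.99% higher and 23.1% lower of 4227 genes. The 5 well-measured members that were not called were EPRS1, NARS1, IARS2, LARS2 and PARS2. The 7 tested members below 100 gave no call, beside a background of 6.10% higher and 4.18% lower of 5145 genes. Their standard errors (SE) ran from 0.25 to 0.38 in log2 units per the authors' deposited table, so a change of the size seen in YARS2 or RARS1 was not detectable in them.

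**Figure D2:**
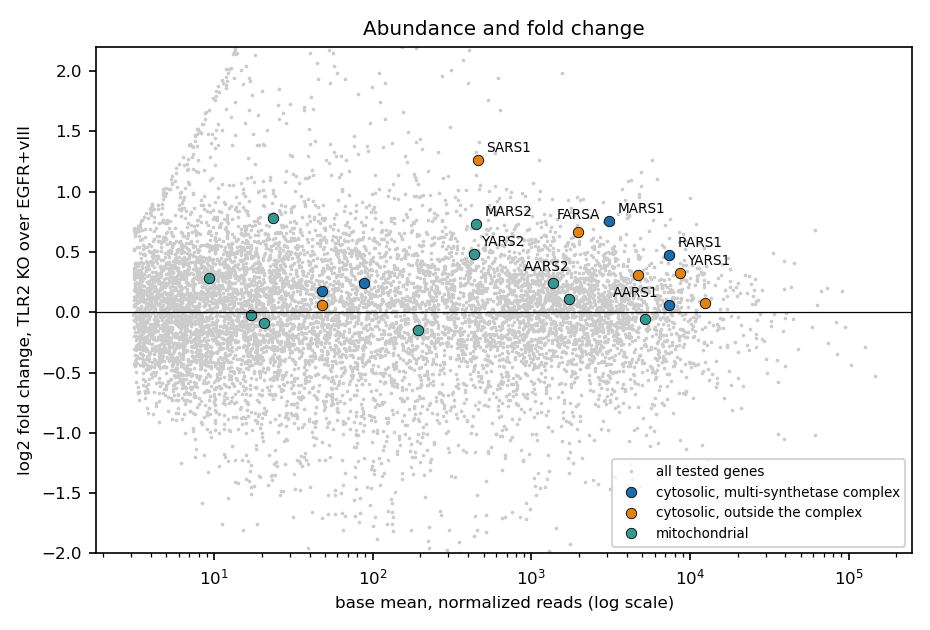
Base mean (normalized reads, log scale) against log2 fold change for all tested genes in grey and the 21 tested synthetases in colour. The 9 labelled synthetases were called higher and lie at base means from 436 to 8675; the axis leaves out 128 grey genes with larger changes.

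In RefSeq GRCh38.p14 the called genes span MARS1 at chr12:57488068-57516652, RARS1 at chr5:168486471-168519301, AARS1 at chr16:70252298-70289506, FARSA at chr19:12922479-12933711, SARS1 at chr1:109213893-109238182, YARS1 at chr1:32775239-32817358, AARS2 at chr6:44298731-44313347, MARS2 at chr2:197705369-197708395 and YARS2 at chr12:32746544-32755897. Values are listed per transcript accession, so none belongs to a single exon.

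Members of the multi-synthetase complex split. MARS1, which charges both initiator and elongator methionine tRNA in the cytosol, had a base mean of 3111 per the authors' deposited table. Its implied level was 3904 normalized reads in the knockout and 2317 in EGFR+vIII cells, a 1.69-fold difference (95% interval 1.51 to 1.88). The log2 fold change of MARS1 was 0.75 (SE 0.08, adjusted p = 1.2e-19) per the authors' deposited table. An implied level is the group mean that follows from the base mean and the fold change, since no library value is listed. RARS1, the arginyl enzyme, stood at 8571 normalized reads in the knockout and 6173 in EGFR+vIII cells, with a log2 change of 0.47 (SE 0.07, adjusted p = 1.14e-09) per the authors' deposited table. Both intervals lie clear of 0, and that of RARS1 (0.33 to 0.62) ends just above the lower bound of MARS1 (0.60).

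EPRS1, whose 1 polypeptide charges both glutamate and proline tRNA, gave no call. Its implied levels were 7483 normalized reads in the knockout and 7182 in EGFR+vIII cells, and its log2 change was 0.06 (SE 0.08, adjusted p = 0.712) per the authors' deposited table. The 95% interval of EPRS1, -0.11 to 0.23 on the log2 scale, lies below that of RARS1. KARS1, the lysyl gene that serves cytosol and mitochondria alike, had a log2 change of 0.24 (SE 0.25) and IARS1, the isoleucyl gene, one of 0.18 (SE 0.32) per the authors' deposited table. Their base means of 88.7 and 48.0 per the authors' deposited table leave intervals that hold both 0 and the value of MARS1 (IARS1) or reach 0.72 (KARS1). LARS1 and QARS1, the leucyl and glutaminyl genes, are listed at 0 per the authors' deposited table.

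Outside the complex, 4 of 6 tested cytosolic members were called, all higher, beside 12.4% higher of all tested genes. The highest fold change among the 21 tested members, by leading accession, was that of SARS1, the seryl gene, at 1.26 (SE 0.14, adjusted p = 7.12e-18) per the authors' deposited table. It was 651 normalized reads in the knockout and 272 in EGFR+vIII cells, 2.40-fold (95% interval 1.98 to 2.90). This value belongs to a non-coding SARS1 transcript, and of the 2 other SARS1 accessions 1 had a base mean of 1.11 and 1 is listed at 0 per the authors' deposited table. The SARS1 result therefore does not give the level of the coding mRNA.

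FARSA, the catalytic alpha subunit of the phenylalanyl enzyme, had implied levels of 2413 normalized reads in the knockout and 1519 in EGFR+vIII cells. Its log2 change was 0.67 (SE 0.09, adjusted p = 3.34e-13) per the authors' deposited table. FARSB, the beta subunit of the same enzyme, had a log2 change of 0.06 (SE 0.30, adjusted p = 0.936) per the authors' deposited table, measured on a non-coding transcript with a base mean of 48.2. The interval of FARSB, -0.54 to 0.65, does not reach the point value of FARSA, but overlaps its interval (0.50 to 0.84). Fold changes that rest on few reads are drawn towards 0, so these intervals cannot show whether the subunits differ.

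YARS1 and AARS1, the tyrosyl and alanyl genes, showed smaller rises of like size. YARS1 had 9639 normalized reads in the knockout and 7712 in EGFR+vIII cells, with a log2 change of 0.32 (SE 0.07, adjusted p = 0.000152) per the authors' deposited table. AARS1 had 5215 in the knockout and 4199 in EGFR+vIII cells, with a log2 change of 0.31 (SE 0.08, adjusted p = 0.000771) per the authors' deposited table. Both lost the call when Wald scores were scaled by their central spread.

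NARS1, the asparaginyl gene and the synthetase with the highest base mean (12445) per the authors' deposited table, had a log2 change of 0.07 (SE 0.07, adjusted p = 0.568). It lies on chromosome 18, where the median log2 fold change of 165 tested genes was -0.22, against medians between -0.06 and 0.12 on the other chromosomes that hold synthetases. Relative to its 20 nearest tested genes (median -0.28), the log2 fold change of NARS1 was 0.35 (adjusted p = 1.42e-05). This p-value, like all those relative to neighbours, takes the neighbour median as known and so leaves out the spread of the neighbours. The neighbours of FARSA on chromosome 19 had a median of -0.20 and those of MARS1 on chromosome 12 one of 0.19, and both genes kept their calls relative to them (0.87 and 0.56). CARS1, GARS1, HARS1 and VARS1, the cysteinyl, glycyl, histidyl and valyl genes, are listed at 0 per the authors' deposited table.

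Mitochondrial synthetases were called higher in 3 of 10 tested members and lower in 0, with a median log2 fold change of 0.17, beside 6 of 11 and 0.31 for the cytosolic members. The background was 12.4% higher and 12.7% lower of all tested genes. Both sets hold tested members with a base mean below 100, and none of those was called. The difference between the sets was not tested and cannot be told apart from 1 of abundance. MARS2, the mitochondrial methionyl gene, had implied levels of 561 normalized reads in the knockout and 338 in EGFR+vIII cells. Its log2 change was 0.73 (SE 0.14, adjusted p = 1.52e-06) per the authors' deposited table. YARS2, the mitochondrial tyrosyl gene, had 508 in the knockout and 364 in EGFR+vIII cells, with a log2 change of 0.48 (SE 0.13, adjusted p = 0.00227) per the authors' deposited table. The YARS2 call ended with scaled Wald scores (adjusted p = 0.276).

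AARS2, the mitochondrial alanyl gene, lay closest to the threshold, at 1482 normalized reads in the knockout and 1256 in EGFR+vIII cells (log2 fold change 0.24, SE 0.09, adjusted p = 0.0402 per the authors' deposited table). The AARS2 call ended in 5 of 8 alternatives, among them relative to its neighbours on chromosome 6 (0.09, adjusted p = 0.573) and to the median of all tested accessions (0.22, adjusted p = 0.066). IARS2 (-0.06, SE 0.08) and LARS2 (0.11, SE 0.09), the isoleucyl and leucyl genes, had SEs as small as those of called members and no call per the authors' deposited table. PARS2, the prolyl gene, had a log2 change of -0.14 (SE 0.19) per the authors' deposited table.

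The other tested mitochondrial members rest on few reads. CARS2, the cysteinyl gene, had a log2 change of 0.78 (SE 0.37, adjusted p = 0.119) per the authors' deposited table from a base mean of 23.5. A second, non-coding CARS2 transcript, with a base mean of 20.2, was higher by 1.26 (SE 0.37, adjusted p = 0.0044) per the authors' deposited table, and the weighted mean of both was 1.02 (adjusted p = 0.000722). The weighted mean treats the transcripts as independent, but both come from the same libraries, so its p-value may be too small. FARS2 (0.28, SE 0.38), EARS2 (-0.03, SE 0.38) and NARS2 (-0.09, SE 0.36), the phenylalanyl, glutamyl and asparaginyl genes, had base means between 9.28 and 20.7 per the authors' deposited table.

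Where an amino acid has a tested gene on both sides, the calls of both could be set side by side, for 6 amino acids. For alanine, methionine and tyrosine both genes were called higher, but with scaled Wald scores both alanine and both tyrosine genes lost the call. For methionine the log2 fold changes were 0.75 for MARS1 and 0.73 for MARS2 per the authors' deposited table; the genes lie on chromosomes 12 and 2. For asparagine and isoleucine neither gene was called. For phenylalanine FARSA was called and FARSB and FARS2 were not. The glutamate and proline enzymes gave no call in EPRS1, EARS2 or PARS2. Enzyme class is the structural division that separates the synthetases into unrelated folds. By class, 5 of 10 tested class I members and 4 of 10 tested class II members were called higher. Over all tested genes 12.4% were called higher, and no difference between the classes was tested. EPRS1, which joins a domain of each class, was not called.

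**Figure D3:**
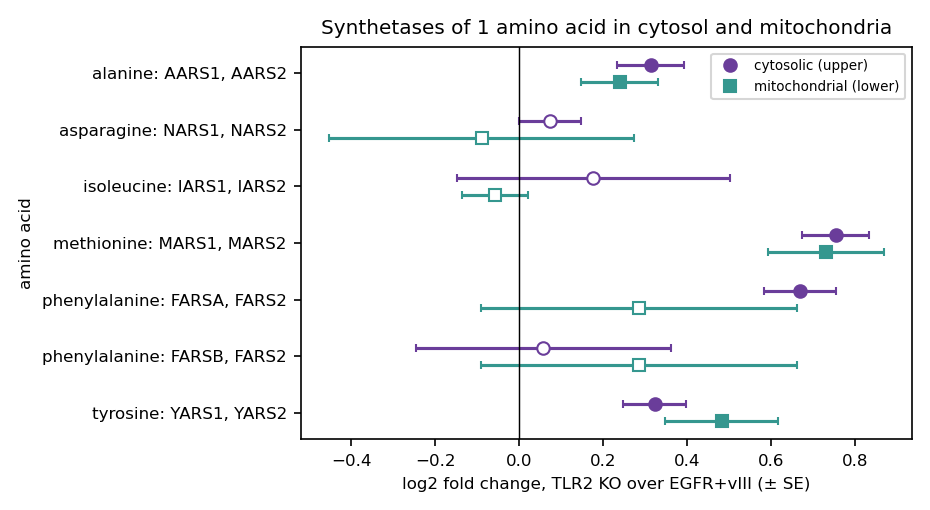
Log2 fold change (knockout over EGFR+vIII, bars SE) of cytosolic (upper, circles) and mitochondrial (lower, squares) synthetases that charge the same amino acid, for the 6 amino acids with both tested. Filled symbols passed an adjusted p under 0.05: both symbols are filled for alanine, methionine and tyrosine.

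Levels were compared between genes per length of transcript, for the 13 members with 1 accession and reads. The 7 cytosolic genes ranged from 1071 (MARS1) to 4016 (NARS1) base mean per kilobase, with RARS1 at 3435 and YARS1 at 2679. The 6 mitochondrial genes ranged from 82.1 (PARS2) to 1455 (IARS2) base mean per kilobase, with LARS2 at 410, AARS2 at 355, YARS2 at 206 and MARS2 at 149. IARS2 was the only mitochondrial gene within the cytosolic range. MARS1 was thus the lowest cytosolic gene and MARS2 the second lowest mitochondrial gene of those compared by level, and both were among the members with the highest fold change. Bulk RNA cannot tell fewer cells with a transcript from less transcript per cell.

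Synthetase genes with 1 accession had reads more often than those with several. Of 14 members with 1 accession, 13 were tested, with 8 calls, all higher. Of 20 members with several accessions, 8 are listed at 0, 4 have too few reads for an adjusted p, and 8 were tested. Of these 8, 1 was called higher, beside 12.4% of all tested genes. Over all protein-coding genes, 30.02% of 7926 with 1 accession and 45.8% of 11209 with several are listed at 0. A listing at 0 therefore says nothing of whether LARS1, QARS1, CARS1, GARS1, HARS1, TARS2, VARS2 or WARS2 was expressed; the cytosolic enzymes among them are needed by every cell. VARS1 is the exception among genes with 1 accession. VARS1 and VARS2 both lie in the stretch of chromosome 6 that holds the major histocompatibility complex, and there 61 of 75 protein-coding genes with 1 accession are listed at 0 (81.3%, Wilson 95% interval 71.1 to 88.5). Elsewhere on chromosome 6 it was 75 of 355 (21.1%, interval 17.2 to 25.7).

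**Figure D4:**
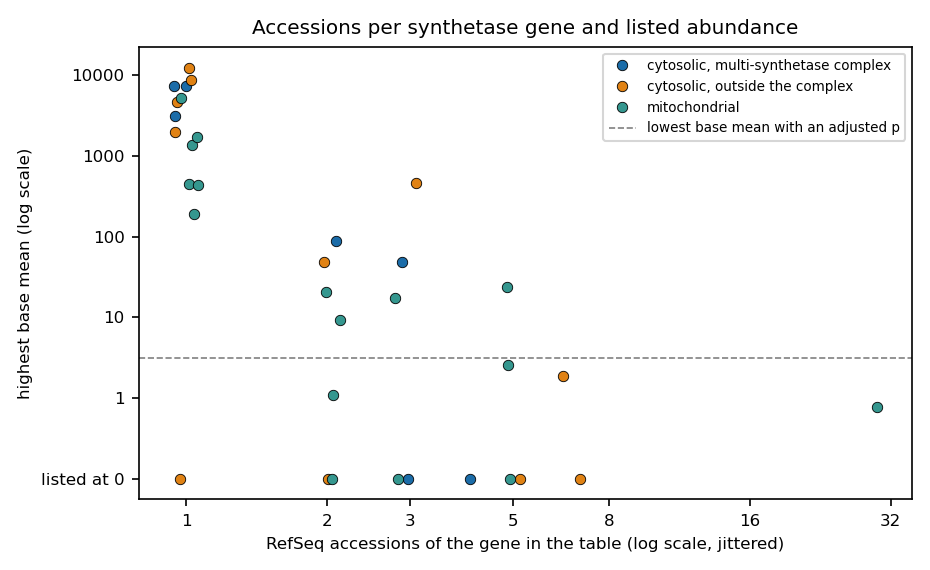
Number of RefSeq accessions of each synthetase gene (log scale, jittered) against its highest base mean (log scale, with 0 drawn at the foot). The 13 genes with 1 accession and reads all lie above 100, and 8 of the 9 genes listed at 0 have several accessions.

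Where an accession has few reads, its base mean is a sum of whole reads that can be resolved by library, since 1 read is worth a different amount in each. Which library of a group is which is not known, so reads are given from most to least. TARS1, the threonyl gene, had 5, 2 and 1 reads in the knockout libraries and 2, 1 and 0 in EGFR+vIII libraries for its leading accession. HARS2, the mitochondrial histidyl gene, had 5, 2 and 1 reads in the knockout and 5, 3 and 0 in EGFR+vIII, 8 in each group. HARS2 starts 84 bases from HARS1 on the opposite strand, and HARS1 has no reads listed. The leading accession of SARS2, the mitochondrial seryl gene, had 1, 0 and 0 reads in the knockout and 6, 0 and 0 in EGFR+vIII. Its other accession had 3, 0 and 0 in the knockout and 3, 0 and 0 in EGFR+vIII. The leading accession of RARS2, the mitochondrial arginyl gene with 32 accessions, had 0 reads in every knockout library and 5, 0 and 0 in EGFR+vIII. Both other RARS2 accessions with reads went the other way, each with 2, 0 and 0 in the knockout and 0 in every EGFR+vIII library. In the leading accessions of TARS1 and HARS2 the groups overlap. In those of SARS2 and RARS2 the difference comes from a single library, and none of these 4 genes has an adjusted p.

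The next question was whether genes that work with the synthetases moved as well. Of the scaffold proteins of the complex, EEF1E1 had a log2 change of 0.21 (SE 0.12, adjusted p = 0.214) and AIMP2 one of 0.24 (SE 0.33, adjusted p = 0.692) per the authors' deposited table, neither called. AIMP1 had 3, 1 and 0 reads in the knockout and 3, 0 and 0 in EGFR+vIII for its leading accession. Of the synthetase genes outside the 34, TARS3, a second cytosolic threonyl gene, fell by 0.60 (SE 0.13, adjusted p = 2.93e-05) in log2 units per the authors' deposited table. WARS1, the tryptophanyl gene known to respond to interferon, had a log2 change of -0.06 (SE 0.23) per the authors' deposited table and was not called.

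Genes that make, mature or deliver tRNA are given by list, to be read against the 12.4% higher and 12.7% lower of all tested genes; no difference from these shares was tested. In tRNA processing, CCA addition and export, 2 of 13 tested genes were higher and 1 lower, with a median log2 fold change of -0.02. XPOT, the exportin that carries tRNA out of the nucleus, had implied levels of 11023 normalized reads in the knockout and 7041 in EGFR+vIII cells, a log2 change of 0.65 (SE 0.07, adjusted p = 1.08e-18) per the authors' deposited table. POP7, a subunit of RNase P, rose by 0.86 (SE 0.16) and ELAC1, a tRNA 3' end nuclease, fell by 0.73 (SE 0.19) in log2 units per the authors' deposited table. Among RNA polymerase III and its factors 1 of 15 was higher and 0 lower (median 0.05), the subunit POLR3D with 0.32 (SE 0.11) per the authors' deposited table. Among elongation factors 1 of 8 was higher and 0 lower (median 0.06), EEF1G with 0.33 (SE 0.11) per the authors' deposited table. Of mitochondrial tRNA amidation, formylation and selenocysteine genes 0 of 5 were called (median 0.22). Of trans-editing and hydrolysis genes 1 of 4 was called, DTD1, a D-aminoacyl-tRNA deacylase, which fell by 0.38 (SE 0.10) in log2 units per the authors' deposited table (list median -0.0038).

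Amino acid transporters were called higher in 4 of 12 tested genes and lower in 0, with a median log2 fold change of 0.33, beside 12.4% higher and 12.7% lower of all tested genes. Among the transporters 5 had a base mean of at least 100, where the background was 19.99% higher and 23.1% lower. No difference from these shares was tested. SLC7A11, the cystine carrier, rose by 0.94 (SE 0.09, adjusted p = 2.14e-22) in log2 units per the authors' deposited table. SLC1A5, a glutamine carrier, rose by 0.72 (SE 0.09) and SLC7A5, a carrier of large neutral amino acids, by 0.57 (SE 0.09) in log2 units per the authors' deposited table. SLC7A2, a carrier of cationic amino acids, was called at 0.97 (SE 0.34, adjusted p = 0.0202) from a base mean of 4.73 per the authors' deposited table. Of the machinery that senses uncharged tRNA and regulates eIF2, 5 of 12 tested genes were higher and 1 lower (median 0.21). Of this list 10 genes had a base mean of at least 100, where the background was 19.99% higher and 23.1% lower, and the difference was not tested. EIF2B1 (0.62, SE 0.09) and EIF2B2 (0.34, SE 0.08), subunits of the eIF2 exchange factor, PPP1R15B (0.45, SE 0.10), the constitutive eIF2 phosphatase subunit, and GCN1 (0.40, SE 0.07), the activator of GCN2, rose by these log2 amounts per the authors' deposited table. EIF2S1, the phosphorylated subunit of eIF2, also rose (0.23, SE 0.07), and EIF2AK4, which encodes GCN2 itself, fell by 0.32 (SE 0.07, adjusted p = 3.42e-05) in log2 units per the authors' deposited table.

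Among ATF4 and amino acid response genes 2 of 12 tested were higher and 2 lower, with a median log2 fold change of 0.17. All tested genes gave 12.4% higher and 12.7% lower. Of this list 6 genes had a base mean of at least 100, where the background was 19.99% higher and 23.1% lower. The list leaves out the synthetases and the amino acid transporters, which are counted above, and no difference was tested. PSAT1, a serine synthesis enzyme, rose by 1.15 (SE 0.19, adjusted p = 1.46e-08) and DDIT4, an inhibitor of mTORC1, by 0.30 (SE 0.09) in log2 units per the authors' deposited table. PSPH, the last enzyme of serine synthesis, fell by 0.43 (SE 0.11) and STC2, a secreted glycoprotein, fell by 0.52 (SE 0.08) in log2 units per the authors' deposited table. PHGDH, the first enzyme of serine synthesis, had a log2 change of 0.09 (SE 0.09) per the authors' deposited table. ATF4 (0.20, SE 0.37), DDIT3 (0.61, SE 0.36), CHAC1 (0.74, SE 0.37) and TRIB3 (0.84, SE 0.38) had base means of 4.96 to 20.6 and were not called per the authors' deposited table, and ASNS is listed at 0. Whether ATF4 and these targets changed was therefore not detectable from the reads listed.

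**Figure D5:**
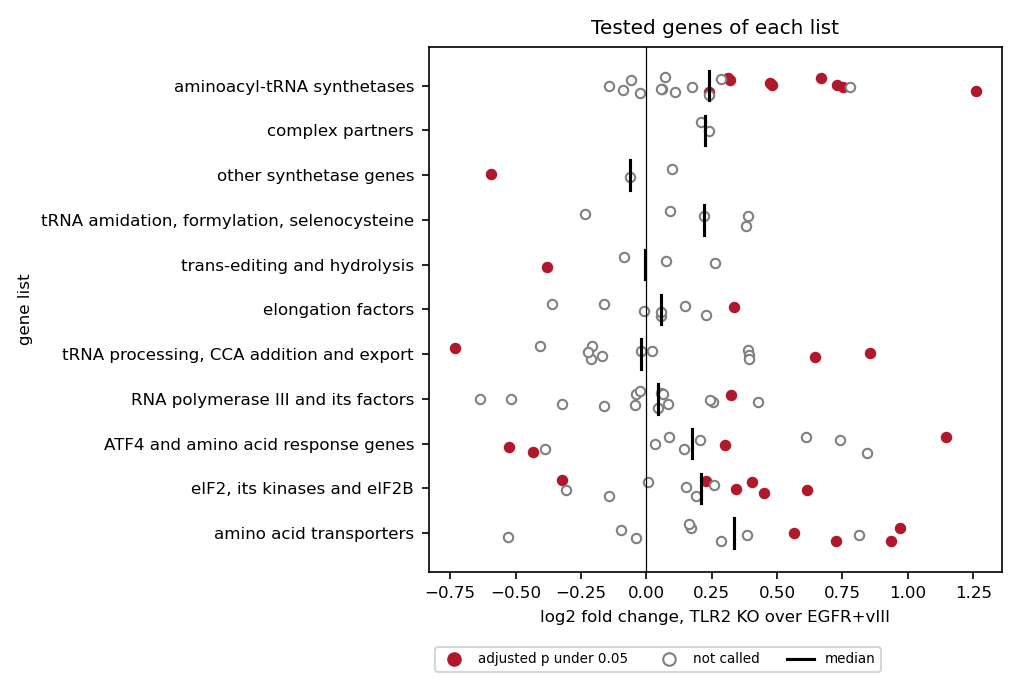
Log2 fold change (knockout over EGFR+vIII) of each tested gene in the synthetases and 10 related lists, with filled points called at an adjusted p under 0.05 and bars at the list medians. The synthetases show 9 filled points, all right of 0, and amino acid transporters 4, while tRNA processing, ATF4 response and eIF2 genes have filled points on both sides.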

How the data were processed

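RNA of 3 EGFR+vIII TLR2 KO and 3 EGFR+vIII libraries of U87 cells entered 1 table made by the authors, grouped by the cell type in the labels. Per the submitters' processing notes, STAR, DESeq2 and hg38 were used, with no version stated. Counter, annotation release and strandedness are not stated there. The authors' columns, per the file headers, are a base mean (a signal of abundance), a log2 fold change with its SE on the log2 scale, a Wald score, a p-value and an adjusted p-value, all deposited without library columns. The deposited Wald score equals fold change over SE (largest gap 5.39e-07). The adjusted p equals Benjamini-Hochberg values computed on the 10303 accessions with an adjusted p (largest gap 4.48e-07). SEs never exceed 0.38, a mark of fold changes drawn towards 0, which understates changes of accessions with few reads and makes their implied levels too alike.

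The planned count test on libraries could not be run on such a table, so the authors' DESeq2 adjusted p under 0.05 was used. Of 67933 accessions 98.8% were matched to RefSeq genes of GRCh38.p14, the build hg38. Transcript lengths came from GENCODE 29 transcripts paired with RefSeq accessions, found for 31 members. A gene's 2-group levels follow from base mean and fold change with equal group sizes. Reads per library were resolved up to 25 reads, within 1e-07 of the base mean, with 1 solution each, and the group with the positive fold change taken as the knockout; the method was tested on simulated data. Wilson intervals (95%) cover counting error only. All 34 members are named; of related lists, up to 4 called genes per direction with the largest change, plus 10 fixed genes; WARS1 and EIF2S1 were added after their values were seen, and 1 related gene is not reported here. Members and lists were chosen with earlier results of these data known. Python 3.11.15, pandas 2.3.3 and scipy 1.17.1 were used.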

Additional observations from a re-analysis of the deposited data

How the results depend on the processing

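The count of 9 synthetases called higher stayed within 1.5 times under 6 of 8 alternatives, at 8 to 10. The shares of all tested genes called higher under these 6 ran from 6.78% to 22.8%. Several of the 6 could hardly alter the count. The base mean limit of 100 left out no called member, since the lowest stood at 436. The restriction to 1 accession could only take out SARS1, and the weighted mean kept the fold changes of genes with 1 accession. The count was 1 against a change of at most 1.5-fold, a stricter test by construction. With Wald scores scaled by their central spread it was 5, and 4 members lost the call. That scaling is stricter here because the spread of the scores in this table was 1.75, above 1. The 5 were MARS1, RARS1, FARSA, SARS1 and MARS2. No member was called lower under any of the 8, and an unadjusted p under 0.05 gave none lower. The median log2 fold change of tested members ran from 0.21 relative to neighbouring genes to 0.32 at a base mean of at least 100. EARS2 and NARS2, not called, changed sign relative to neighbours (0.00088 and 0.094); the subtraction of negative neighbour medians makes this shift. NARS1 gained a call relative to neighbours and CARS2 in the weighted mean, with the limits of both p-values given above. The 7 tested members below a base mean of 100 have wide intervals, and each has several accessions. No paired analysis was possible because the table holds no value per library, and for the same reason leaving out replicates and a second count tool were not run.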
